A study of Mus musculus with 6 samples.

Results

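The 4 transcripts described here are long noncoding RNAs from which microRNAs are cut: Mir143hg, Gm21747, Mir17hg and Mir22hg. They were taken by name from the 28660 loci of a table of nuclear RNA in HL-1 cells, in which each has 1 row. They were chosen by their level in the chromatin pellet over that in the soluble fraction, as known from earlier results of the same table, so this difference is given as a description, with no test. HL-1 is a mouse line of atrial cardiomyocytes, derived from an atrial tumour driven by a viral oncogene under the natriuretic factor promoter, and it keeps dividing and beating in culture. The cells were grown in Claycomb medium with serum, L-glutamine and norepinephrine, and no treatment or genotype was compared. Nuclei released with detergent were fractionated into a chromatin pellet extract (3 libraries, fraction named chromatin-enriched RNA) and a soluble nuclear extract (3 libraries, named soluble-nuclear RNA). Synthetic ERCC spike-in RNAs were added to each fraction before RNA extraction. The deposited values are FPKM, fragments scaled to transcript length and library size, with 1 pooled value per fraction, so no difference here can be set against the spread between the 3 replicates and the sequencing depth is unknown.

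MicroRNAs begin as hairpins inside longer primary transcripts made by RNA polymerase II. In the nucleus, Drosha and its partner Dgcr8 cut the hairpin out, in many cases while the transcript is still on its template. The hairpin is then exported, trimmed by Dicer and loaded into an Argonaute protein, which it guides to messages by its seed. Mir143hg, now named Carmn, is the host of miR-143 and miR-145, which are known for smooth muscle and early heart progenitors. Gm21747, now named Mir133a-1hg, is the host of the muscle microRNAs miR-1a-2 and miR-133a-1, which act on cardiomyocyte growth and conduction. Mir17hg is the host of the miR-17 to miR-92a cluster, a growth-promoting group under Myc and E2f control that is needed for normal heart development. Mir22hg is the host of miR-22, a microRNA abundant in heart muscle.

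The mature microRNAs of Mir17hg and Mir22hg are shown because they define what each host makes, and because they place the cluster beside a relative hosted by a protein-coding gene. Sequences are from RefSeq on GRCm38.p6, written 5′ to 3′, with the seed (bases 2 to 8) in capitals.
mmu-miR-17-5p: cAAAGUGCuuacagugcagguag
mmu-miR-20a-5p: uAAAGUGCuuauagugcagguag
mmu-miR-18a-5p: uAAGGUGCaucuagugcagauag
mmu-miR-19a-3p: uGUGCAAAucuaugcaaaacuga
mmu-miR-19b-3p: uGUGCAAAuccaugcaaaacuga
mmu-miR-92a-3p: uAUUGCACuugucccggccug
mmu-miR-22-3p: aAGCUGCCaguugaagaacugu
The cluster of Mir17hg thus carries 4 seeds over 6 guide strands. miR-17-5p and miR-20a-5p share one, miR-19a-3p and miR-19b-3p share another, and miR-18a-5p and miR-92a-3p each have their own. Among the 1679 mature names in the RefSeq table, 6 others share the seed of miR-17-5p, among them miR-106b-5p and miR-93-5p. For miR-92a-3p there are 5 others, among them miR-25-3p, and for miR-22-3p there are 0. The hairpin of miR-22 is 95 bases long and lies on the plus strand at chr11:75463716-75463810. It is shown with both mature arms in capitals, because it has a row of its own in the table.
Mir22 hairpin: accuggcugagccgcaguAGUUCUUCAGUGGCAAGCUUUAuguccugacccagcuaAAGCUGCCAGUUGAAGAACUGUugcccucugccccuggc

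The spans of the 4 hosts in the table (mm10, the same build) did not all hold their hairpins. Mir143hg, a lincRNA in the table (ENSMUSG00000097324.4, chromosome 18, 61649625 to 61665537), begins 366 bp after the Mir143 hairpin, and neither Mir143 nor Mir145a lies in its span. RefSeq draws the same gene from 61645878 to 61665538, which includes both hairpins. Mir17hg, also a lincRNA (ENSMUSG00000089726.2, chromosome 14, 115042879 to 115046727), contains all 6 hairpins of its cluster within 836 bp, starting 792 bp into the span. Its RefSeq model starts later, at 115044390, and fully holds only the last hairpin, Mir92-1. Mir22hg, a processed transcript (ENSMUSG00000085148.1, chromosome 11, 75461539 to 75470899), carries the span that it shares with the protein-coding gene Tlcd2 and with the Mir22 row. In RefSeq it ends at 75466690, before Tlcd2 begins at 75468024, and Mir22 lies inside it. Gm21747, typed antisense (ENSMUSG00000095438.1, chromosome 18, 10725548 to 10818704), is listed with the span of Mib1, a ubiquitin ligase of Notch signalling. Its RefSeq span of 13088 bp, from 10778306 to 10791393, holds Mir133a-1, Mir1a-2 and Mir1b. Exon maps were not used here, so exonic and intronic hairpins are not told apart. The kit keeps strand, but the sources used here do not give whether the counting used it.

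**Figure D1:**
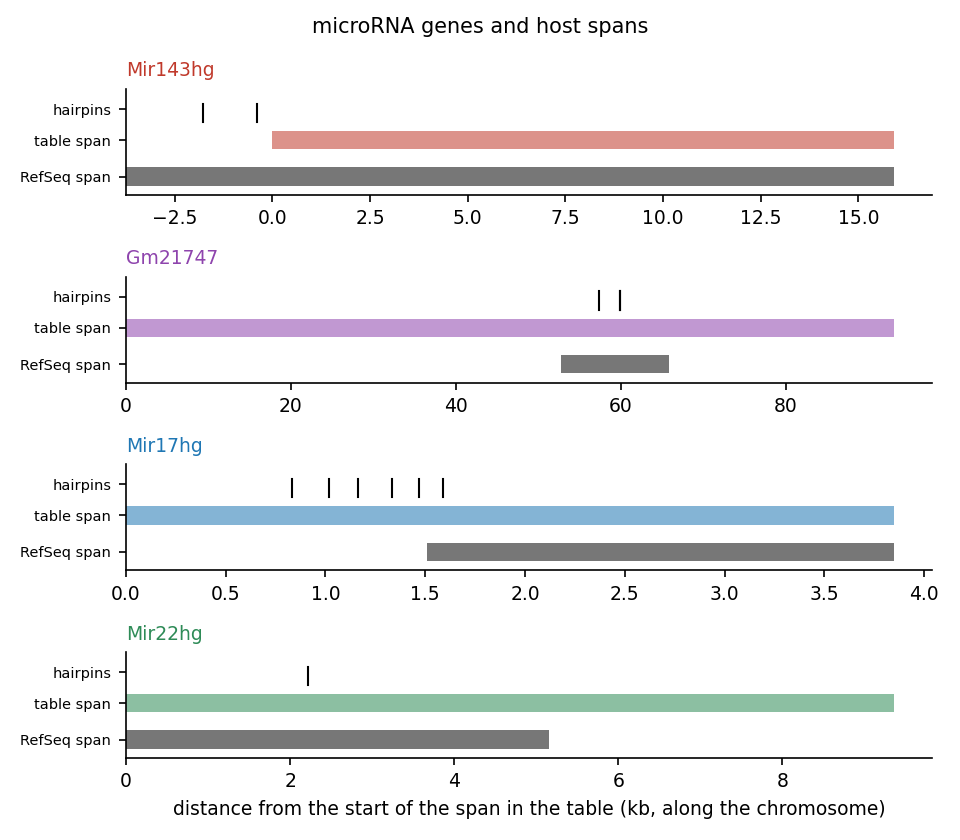
Positions of microRNA hairpins (black ticks), the span in the deposited table (coloured bar) and the RefSeq span (grey bar) for each host, in kb from the start of the table span along the chromosome. The 2 hairpins of Mir143hg lie before its table span, the 6 of Mir17hg crowd into 836 bp, and in Gm21747 the right-hand tick stands for Mir1b and Mir1a-2, which overlap.

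Mir143hg was by far the most abundant of the 4 in chromatin. Its level was 5.54 FPKM in the soluble fraction and 53.5 FPKM in the pellet. Loci were compared where their FPKM, averaged over the fractions, reached 0.5 (13917 loci, called the tested loci). Among them Mir143hg ranked 490th by pellet level but only 8963rd by soluble level. To compare amounts, pellet FPKM was multiplied by 3.37, the factor that brings the spike-ins of the fractions to one line, called the spike-in scale below. On that scale it was 32.5 times higher in the pellet, a log2 difference of 5.02, and 97.0% of its summed signal lay there. It ranked 3rd of 370 lincRNAs by this difference, against a lincRNA median of 1.76.

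Gm21747 was much rarer but divided between the fractions in nearly the same proportion. It had 0.257 FPKM in the soluble fraction and 2.47 FPKM in the pellet, about 21.6 and 21.7 times less than Mir143hg. Its log2 difference was 5.02 and its pellet share 97.0%. It stood 5th of 236 antisense loci by the difference (antisense median 1.30).

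Mir17hg was the rarest, with 0.155 FPKM in the soluble fraction and 0.977 FPKM in the pellet. Its mean of 0.566 FPKM was just above the level needed for testing. The log2 difference was 4.41, or 21.2-fold, with 95.5% of the signal in the pellet, and it ranked 22nd of the 370 lincRNAs. In soluble RNA both Mir17hg and Gm21747 were below 0.5 FPKM, so they passed the filter only through the pellet. Passing at their soluble levels already fixes a call as higher in the pellet, with or without the spike-in factor, and their ranks are to be read with that.

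Mir22hg stood apart from the other hosts. It had 1.70 FPKM in the soluble fraction and 3.81 FPKM in the pellet, a log2 difference of 2.92 (7.56-fold), and 88.3% of its signal was in the pellet. It ranked 49th of 192 processed transcripts, whose median was 1.48. In soluble RNA it exceeded Gm21747 6.62 times, but in the pellet only 1.55 times.

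By summed signal on the spike-in scale the order was Mir143hg (186), Mir22hg (14.6), Gm21747 (8.57) and Mir17hg (3.45). Mir143hg exceeded the next by 12.8 times, Mir22hg exceeded Gm21747 by 1.70 times, and Gm21747 exceeded Mir17hg by 2.48 times. No replicate value exists to say which of these steps exceeds the spread between cultures.

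**Figure D2:**
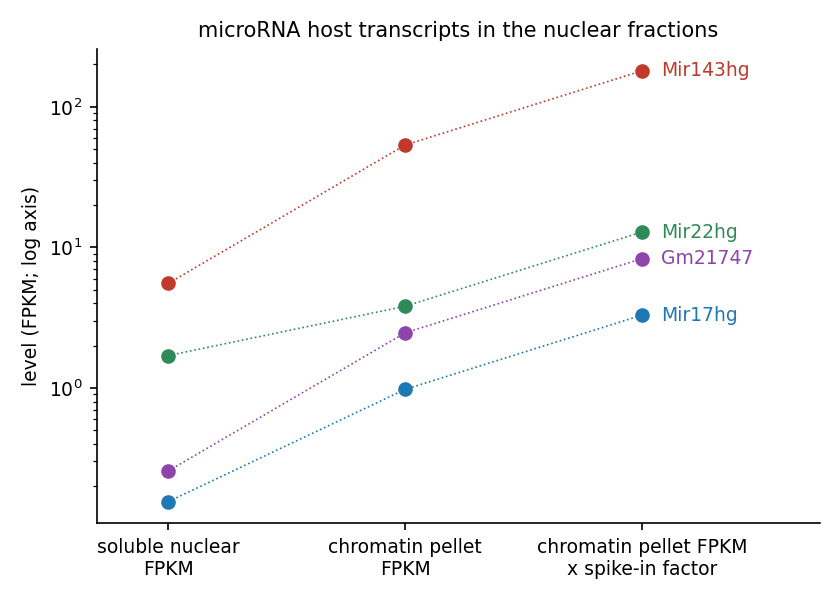
Level of the 4 hosts (log axis, FPKM) in the soluble fraction, in the chromatin pellet and in the pellet after multiplication by the spike-in factor of 3.37, with 1 pooled value per point and therefore no error bars. All 4 are higher in the pellet before and after the factor, and the line of Mir22hg is the flattest between the FPKM values.

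All 4 hosts were past 2-fold towards the pellet on the spike-in scale, where 31.9% of all tested loci were, as were 49.8% of all 28660 loci with no filter on level. Without the factor, on the FPKM scale, all 4 were past 2-fold (9.66% of tested loci). Their log2 differences were 3.27 for Mir143hg, 3.26 for Gm21747, 2.65 for Mir17hg and 1.17 for Mir22hg. For Gm21747 and Mir17hg, passing the filter at their soluble levels fixes this call on both scales. The 4 hosts were selected with this difference in view, so nothing is read from the counts. The median over all tested loci was 0.41 on the spike-in scale and -1.34 on the FPKM scale, a shift of 1.75 that applies to every locus. Any value between 0 and 1.75 on the spike-in scale, among those given below, is therefore negative on the FPKM scale.

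The error that the table does show is the scatter of the spike-ins, which covers library making and sequencing but neither the fractionation nor the cultures. For spike-ins within 4-fold of the soluble level of Mir143hg, the SD of the log2 difference was 0.11 (n = 20), and it departed from 0 by at most 0.28. For those near Mir22hg the SD was 0.15 (n = 24). Near the low soluble levels of Gm21747 and Mir17hg it was 0.35 (n = 22) and 0.39 (n = 19), with a largest departure of 0.84 in both. The gap of 0.62 between Mir143hg and Mir17hg was within that range, and Mir143hg and Gm21747 differed by 0.01. Mir22hg lay below Mir17hg by 1.49 and below Mir143hg by 2.10, more than any of these spike-ins departed. No replicate test of these gaps was possible.

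**Figure D3:**
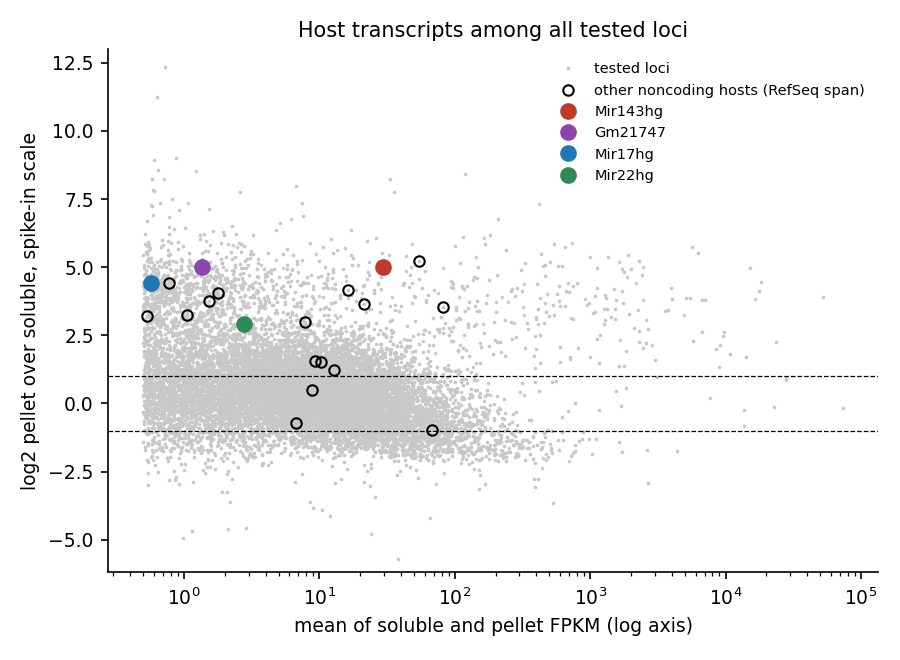
Log2 pellet over soluble level on the spike-in scale against the mean FPKM (log axis) for every tested locus (grey), the 4 hosts (colours) and the other noncoding hosts found through RefSeq spans (open circles). Dashed lines mark 2-fold, and the 4 hosts lie between 2.92 and 5.02.

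Named neighbours of Mir143hg, Gm21747 and Mir22hg other than their microRNA rows lay further towards the soluble fraction than the host. Apart from Gm20748, the tested ones are protein-coding, a type whose median log2 difference was 0.26. The lincRNA 4930563E18Rik, 13715 bp before the span of Gm21747, was too low to be tested and had 1.32. Next to Mir143hg lies Gm20748, now named Bvht or Braveheart, a lincRNA known from cardiac commitment of mouse stem cells, which ends 2152 bp before the table span of the host. Gm20748 had 2.72 FPKM in the soluble fraction and 0.492 FPKM in the pellet, a log2 difference of -0.72, while the host was at 5.02. In soluble RNA it was thus 0.491 times the host, and in the pellet 0.0092 times. On the other side, 22397 bp away, Il17b, a cytokine gene, had a log2 difference of -1.15 from 1.62 soluble and 0.217 pellet FPKM.

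Mib1, which shares the listed span of Gm21747, had 31.3 FPKM in the soluble fraction and 14.8 FPKM in the pellet, a log2 difference of 0.68. Mib1 was therefore 122 times as high as Gm21747 in soluble RNA and 6.02 times in the pellet. How fragments were assigned between these overlapping genes, and its part in the values of Gm21747, was not tested. After Mir17hg, the nearest named locus was Gpc5, a cell surface proteoglycan gene 45487 bp away, at 0.0015 soluble and 0.0039 pellet FPKM. It was too low to be tested, and its log2 difference of 3.11 lay towards the pellet like that of Mir17hg.

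Around Mir22hg, the protein-coding Tlcd2 had 2.01 FPKM in the soluble fraction and 0.427 FPKM in the pellet, a log2 difference of -0.48. Wdr81, 6821 bp before the span, had 0.59, and the splicing factor gene Prpf8, 15916 bp after it, had 0.23. All 3 were within 2-fold on the spike-in scale and past 2-fold towards the soluble fraction on the FPKM scale (-2.24, -1.17 and -1.52), whereas Mir22hg was higher in the pellet on both.

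MicroRNA rows of the table allow the hairpin region to be set beside its host. Of 12 RefSeq hairpins placed with the 4 hosts by position, 3 have a row: Mir143, Mir22 and Mir1b. Strand was not compared, so a hairpin placed in this way need not be cut from the host. Mir143 had 13.7 FPKM in the soluble fraction and 95.5 FPKM in the pellet, a log2 difference of 4.55, which is 0.47 below its host. Mir1b, which overlaps Mir1a-2, had 0.994 FPKM in the soluble fraction and 4.55 FPKM in the pellet. Its log2 difference of 3.95 was 1.07 below that of Gm21747. Mir22 went the other way from its host: it had 7.29 FPKM in the soluble fraction and 1.16 FPKM in the pellet, a log2 difference of -0.90. The Mir22 row thus lay 4.29 times above Mir22hg in soluble RNA and at 0.304 times its level in the pellet, a gap of -3.82 in log2 difference.

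The same comparison was made for every noncoding row whose RefSeq lncRNA span holds a microRNA with its own row, a rule added after values had been seen. It gave 9 pairs over 8 hosts, with both rows tested. In 8 of 9 pairs the microRNA row was less weighted to the pellet than its host, with a median gap of -2.17 and a range from -3.82 to 1.94. Over all 108 tested microRNA rows the median log2 difference was 1.92, with 73 past 2-fold towards the pellet. Every paired host except H19 lay above that median, so the count of 8 is not read as particular to these pairs. H19, the imprinted fetal transcript that carries miR-675, had a log2 difference of -0.96, and its Mir675 row had -3.13 (290.0 soluble and 9.82 pellet FPKM). Ftx, a noncoding neighbour of Xist, had 3.77 and its Mir374b row 0.40. Lncppara, a let-7 host listed under a clone name, had 5.22, with Mirlet7b at 2.86 and Mirlet7c-2 at 3.52. Nr6a1os had 4.07 and Mir181a-2 had 1.45. The exception was Mir351, at 4.92 beside 2.98 for its host C430049B03Rik. In 5 of the 9 pairs, Mir22 and Mir1b included, both rows carry the same span, so the division of fragments between them enters both values. In the other 4, among them Mir143, the microRNA row lies outside the span that the table gives the host. All pairs were made by position without regard to strand, so the microRNA of a pair need not be cut from its host. They come from the same libraries and are not replicates. The sources used here do not give the length by which each FPKM was scaled, or whether it was the same in both fractions. Its part in these gaps was not tested.

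**Figure D4:**
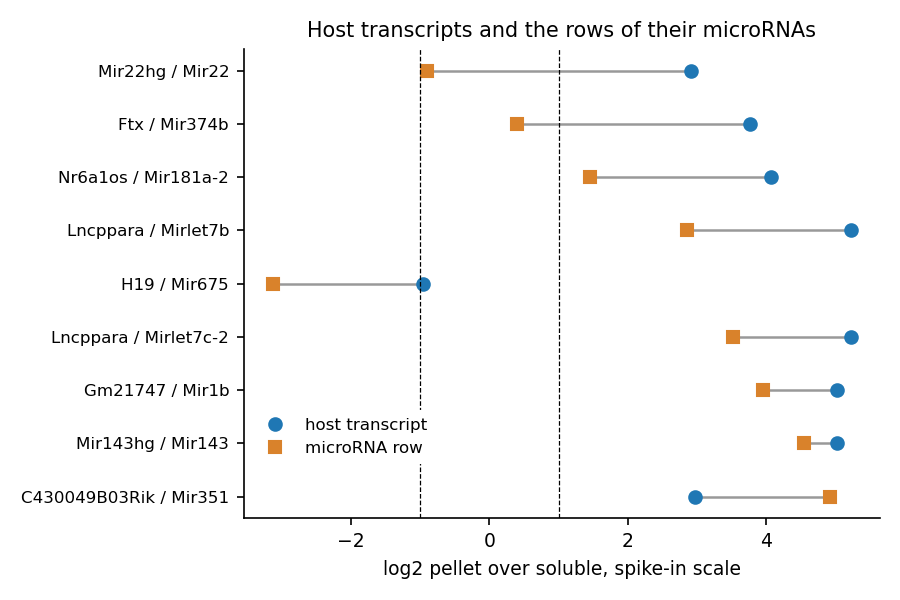
Log2 pellet over soluble level on the spike-in scale for noncoding hosts (circles) and the row of a microRNA that lies in the RefSeq span of each (squares), joined by a line, with dashed lines at 2-fold. In 8 of 9 pairs the square lies to the left of the circle, and the widest gap, -3.82, is that of Mir22 and Mir22hg.

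Other noncoding hosts mostly lay towards the pellet as well. From a list of 26 names, some of them for the same gene, 10 matched the symbol under which a row is listed. Of these, 8 were tested, with 7 higher and 0 lower, the median being 3.97 against 0.41 for all tested loci. Listed names whose row carries another symbol were missed by this match. They included the tested rows RP23-201G13.1 of Mir670hg (3.25) and RP23-442M18.1 of Mir100hg (3.54). Mir155hg, Mir124a-1hg and Mir9-3hg had rows too low to be tested. Without the 4 hosts described here, 3 of the other 4 tested matches were higher, with a median of 3.70. These were 2610203C20Rik, which RefSeq matches to Mir100hg, the host of miR-100 and let-7a-2 (4.17), Ftx (3.77) and Dleu2, the host of miR-15a and miR-16-1 (3.63). H19 was the one within 2-fold. The RefSeq rule gave 57 rows, of which 20 were tested. Mir100hg accounts for 2 of these rows. On the spike-in scale 17 of the 20 lay higher in the pellet, where 31.9% of all tested loci did, and 0 lay lower (10.5% of tested loci). Their median was 3.39. On the FPKM scale 14 lay higher and 3 lower (9.66% and 61.2% of tested loci), around a median of 1.64. Members below 0.5 soluble FPKM passed the filter only through the pellet, which fixes their call as higher on the spike-in scale. Besides Mir17hg and Gm21747 these were A330023F24Rik (0.211 soluble FPKM) and E130102H24Rik (0.284 soluble FPKM). At the soluble levels of all these rows, the call as higher is fixed on the FPKM scale too. After removal of the 4 hosts, 13 of 16 were higher, with a median of 3.24. In this set Lncppara (9.04 soluble and 99.97 pellet FPKM) had a difference above Mir143hg, and A330023F24Rik, the host of miR-29b-2 and miR-29c, had 4.42, next to Mir17hg. The 3 tested rows within 2-fold, named after their values were seen, were H19, Snhg4 (0.50) and Snhg10 (-0.72). The rule takes rows by position alone. These hosts are lincRNAs, antisense or processed transcripts, types whose medians of 1.76, 1.30 and 1.48 are also above that of all tested loci.

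Protein-coding genes that carry microRNAs in their bodies were near balance. Of 34 listed, 24 were tested. On the spike-in scale 5 were higher and 3 lower (31.9% and 10.5% of all tested loci) around a median of 0.52. On the FPKM scale 0 were higher and 16 lower (9.66% and 61.2% of all tested loci) around -1.23. Ppargc1b, a coactivator of mitochondrial genes and host of miR-378, was highest at 2.33, followed by R3hdm1, host of miR-128-1, at 1.43. Igf2, the growth factor gene that hosts miR-483, was lowest at -1.58, and Egfl7, the endothelial gene that hosts miR-126, had -1.03. Mcm7, a replication helicase gene chosen after its value was seen, holds Mir106b, Mir93 and Mir25, which share seeds with the cluster of Mir17hg shown above. Mcm7 had 55.7 FPKM in the soluble fraction and 17.7 FPKM in the pellet, a log2 difference of 0.10, where Mir17hg had 4.41. Myh6, the atrial myosin gene that hosts miR-208a, was at 1.24 with 124.4 soluble and 87.3 pellet FPKM.

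The median for messages of the processing machinery lay between those of the 4 hosts and of all tested loci on the spike-in scale, though single messages lay below both. Of 27 listed names, 23 had a tested row. Tut4 and Tut7 are listed under their older names Zcchc11 and Zcchc6 as well, so the list holds fewer genes than names. On the spike-in scale 11 were higher and 2 lower (31.9% and 10.5% of all tested loci), with a median of 0.90 against 0.41 for all tested loci. On the FPKM scale 0 were higher and 11 lower (9.66% and 61.2% of all tested loci), around -0.85. The largest difference was that of Ago3, an Argonaute gene, at 2.38 (15.5 soluble and 23.9 pellet FPKM), followed by Dgcr8 at 2.16 (9.93 and 13.2 FPKM). Ran, the GTPase that drives nuclear export, had -1.38, and the cap-binding gene Ncbp2 had -1.02. The messages of Drosha (0.22), Xpo5, the hairpin exporter (0.36), and Dicer1 (1.09), named for their roles after their values were seen, all lay below the 4 hosts. On the FPKM scale all 3 were below 0.

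Known regulators of the hosts were expressed and mostly within 2-fold. Of 15 listed genes 14 were tested, and their median on the spike-in scale was 0.77. There, 3 lay higher in the pellet and 0 lower, beside 31.9% and 10.5% of all tested loci. By FPKM without the factor, 0 lay higher and 7 lower, beside 9.66% and 61.2% of all tested loci. Myocd, the coactivator of Srf that drives miR-143 and miR-145, had 32.6 FPKM in the soluble fraction and 21.9 FPKM in the pellet, a difference of 1.18, which becomes -0.57 on the FPKM scale. Mef2d, of the family that drives miR-1 and miR-133a, also had 1.18, or -0.58 on the FPKM scale. Trp53 was lowest at -0.65, followed by Nkx2-5, the cardiac homeobox gene, at -0.51. Myc, an activator of Mir17hg named after its value was seen, had 5.998 soluble and 3.14 pellet FPKM and a difference of 0.82, or -0.94 on the FPKM scale.

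Textbook targets of these microRNAs were centred on balance on the spike-in scale. Of 27 listed genes 23 were tested, with 5 higher and 3 lower (31.9% and 10.5% of all tested loci). Their median was 0.02 against 0.41 for all tested loci. On the FPKM scale 0 were higher and 16 lower (9.66% and 61.2% of all tested loci), around -1.74. Hdac4, a histone deacetylase gene targeted by miR-22, was highest at 1.61. Bcl2l11, the proapoptotic target of the miR-17 cluster, had 1.37. Tagln2, targeted by miR-133a, was lowest at -1.39, and Gja1, the connexin target of miR-1, had -1.33. Distribution between nuclear fractions says nothing of repression, which was not measured.

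**Figure D5:**
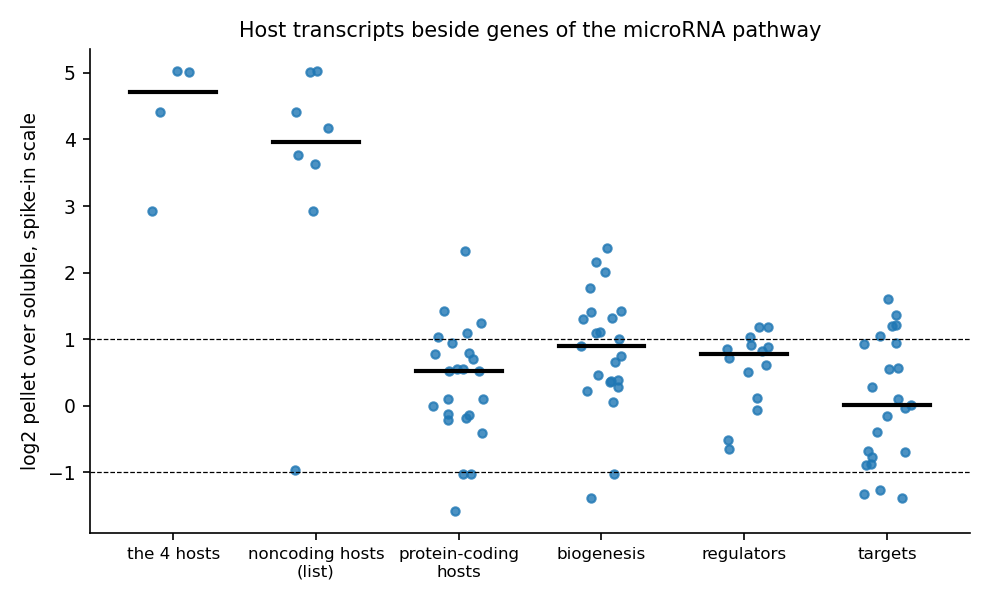
Log2 pellet over soluble level on the spike-in scale for tested members of each list (points, spread sideways for legibility) with the median (bar) and 2-fold (dashed lines). The medians are 4.71 for the 4 hosts and 3.97 for the list of noncoding hosts, which includes them, against 0.52, 0.90, 0.77 and 0.02 for the other lists.

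Cell identity was checked because Mir143hg is best known from smooth muscle. All 9 cardiomyocyte markers with a row were tested, with 2 higher and 3 lower (31.9% and 10.5% of all tested loci). Their summed level was 3461 FPKM in the soluble fraction and 646 FPKM in the pellet. Myl7, the atrial light chain gene, had 1119 soluble FPKM, whereas Nppa, encoding atrial natriuretic peptide, had only 1.63. Myl7 and Nppa were the lowest markers at -1.34 and -1.21, and Actn2 and Myh6 the highest at 2.02 and 1.24. Of 10 smooth muscle markers 9 were tested, with 2 higher and 2 lower, beside the same shares of all tested loci. They summed to 2194 FPKM in the soluble fraction and 434 FPKM in the pellet. Acta2 (1539 soluble FPKM, difference -1.03) was the highest, followed in soluble RNA by Tagln (381 FPKM), Des (86.0), Mylk (75.2), Synpo2 (59.5), Myocd (32.6) and Smtn (18.4). The lowest were Cnn1 (1.43), the smooth muscle myosin gene Myh11 (0.867) and Lmod1 (0.422), which was not tested. By log2 difference Synpo2 (1.91) and Myocd (1.18) were highest and Cnn1 (-1.29) lowest. Among 12 markers of fibroblasts, endothelium, immune cells, skeletal muscle and neurons, 10 had a row and 3 were tested: Cd68 (1.43), Kdr (-0.02) and Pdgfra (-0.27), with 9.82 soluble and 3.07 pellet FPKM in sum. Their soluble levels were 0.711, 5.52 and 3.59 FPKM in that order. The other 7 with a row had 0.780 FPKM (Ckm), 0.707 (Col1a2), 0.350 (Pecam1), 0.020 (Myog), 0.015 (Rbfox3), 0.011 (Ptprc) and 4.98e-05 (Cdh5) in soluble RNA. The endothelial gene Egfl7, a microRNA host given above, stood higher at 21.5 FPKM. Markers that are not at either end of their list by log2 difference were added to the text after their values were seen. Whether any cells of these other types were in the cultures, and what part they would have in the level of Mir143hg, was not tested.

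The loci most like each host were found by distance over the 2 pooled log2 FPKM values, which is a weak measure of likeness. Nearest to Mir143hg was the pseudogene Gm13603, at a distance of 0.08 (5.51 soluble and 50.5 pellet FPKM), followed by Snord72 at 0.30. For Gm21747 they were the unclassified locus RP23-89L15.6 (0.03) and the lincRNA Gm10062 (0.10). For Mir17hg they were the unclassified locus RP23-8G7.5 (0.03) and the pseudogene Gm11870 (0.03). For Mir22hg they were the processed transcript 4933439C10Rik (0.08) and the pseudogene Gm9157 (0.11). None of these loci is typed protein-coding in the table.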

How the data were processed

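The 6 libraries comprise 3 of the chromatin pellet and 3 of the soluble nuclear extract, depleted of ribosomal RNA and made with a strand-specific kit, per the labels' protocols. The submitters' processing notes name the build mm10 and, among tools, Cuffdiff, Cufflinks, HISAT2, SAMtools and bedtools, and the sources used here give neither versions nor order. The authors deposited 1 table with FPKM per fraction, replicates pooled, per the file headers. The deposited rescaled pellet and total signal, their ratio, and the log10 of total and ratio were not used for results. The deposited rescaled pellet signal equals pellet FPKM times the least-squares slope through the origin over 82 spike-ins (3.37) within 0.389 percent in every row. Of 30687 lines, 1945 repeated an identifier and were dropped. Log2 differences were recomputed from FPKM without a pseudocount, as no value was 0. Loci averaging 0.5 FPKM or more were tested, which here means counted against a 2-fold threshold. With 1 pooled value per fraction, the planned limma fit could not be made and no p-value is given. Table starts count from 0 and were shifted to count from 1. Names and spans came from RefSeq (GRCm38.p6). Python 3.11.15, numpy 2.4.6 and pandas 2.3.3 were used, and the code was tested on simulated data.

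The members, lists and rules were chosen with earlier results of these data known. Genes named are the 4 hosts, their microRNA rows, overlapping or adjacent loci, the 2 tested members of each list at either end by log2 difference, and the 2 nearest loci to each host; others are said to be chosen later. Sequences of the microRNAs on chromosome 18 are not reported here. The alternatives tried were the FPKM scale, a median spike-in factor, other level filters, a pseudocount and a 4-fold threshold.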

Additional observations from a re-analysis of the deposited data

How the results depend on the processing

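No paired analysis was possible because each fraction has 1 pooled value, and for the same reason no replicate could be left out. The 4 hosts stayed past 2-fold towards the pellet under the FPKM scale, a spike-in factor of 3.50 from the median ratio, no filter and a pseudocount of 0.1 FPKM, and past a 4-fold threshold. For Mir17hg and Gm21747, having passed the level filter at their soluble levels already fixed these calls, so they are no check for these hosts. With a mean of at least 1 FPKM, Mir17hg was no longer tested and the other 3 were higher. The pseudocount, which weighs most on rare RNA, brought Mir17hg from 4.41 to 3.73, Gm21747 to 4.56 and Mir22hg to 2.85.

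On the FPKM scale 1344 loci were higher and 8514 lower. There, 0 cardiomyocyte markers, biogenesis genes, protein-coding hosts, regulators, targets, smooth muscle markers or other cell markers were higher, and the lower counts were 7, 11, 16, 7, 16, 6 and 2 in that order, with 1 noncoding host. A 4-fold threshold left 2052 loci higher and 125 lower. It left 3 biogenesis genes, 1 protein-coding host and 1 cardiomyocyte marker higher, 0 regulators, targets, smooth muscle or other cell markers higher, and 0 lower in the cardiomyocyte, biogenesis, protein-coding host, smooth muscle and target lists. With the median factor, 1 biogenesis gene, 1 protein-coding host and 1 smooth muscle marker were lower. Without a filter on low values, 14261 of all loci, 11 protein-coding hosts and 4 other cell markers were higher, and 2546 loci and 1 other cell marker lower. With a mean of at least 1 FPKM, 0 other cell markers were higher and 1 smooth muscle marker lower. Hosts found by RefSeq span, added after the data were seen, gave 17 higher. Counts moved with fewer or more loci tested or a shifted scale. Below 0.5 FPKM, where the soluble values of Mir17hg and Gm21747 lie, the spike-in scatter limits precision.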

Other observations

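Beyond the span that Gm21747 shares with Mib1, 9 loci labelled Tbx5-dependent noncoding in the table lie between 106336 and 183244 bp further along chromosome 18, chosen for mention after their values were seen. All 9 were higher in the pellet, with log2 differences from 4.50 to 5.97 on the spike-in scale and a median of 5.27. Most loci of this type lay the same way wherever they were: with no filter on level, 794 of 849 were past 2-fold towards the pellet, with a median of 4.001, against 49.8% of all 28660 loci. Their pellet levels were 0.345 to 0.653 FPKM and their soluble levels 0.027 to 0.060 FPKM, and 0 of the 9 reached the mean of 0.5 FPKM used for testing. They form 1 run along the chromosome and are not independent of each other.

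Mir143hg and Gm20748 are both cardiac lincRNAs that lie 2152 bp apart in the table, yet the log2 difference of Gm20748 was 5.74 below that of Mir143hg. The RefSeq spans of these genes, Carmn from 61645878 and Bvht up to 61647485 on chromosome 18, overlap at their ends, and the Mir145a hairpin lies in the part of Carmn that the table leaves out of Mir143hg. The value of that part was not analysed here.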
